A study of Triticum aestivum with 9 samples.

Results

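Transcripts of 2 fructan exohydrolase genes, 6-FEH (LOC780575) and 1-FEH (LOC543441), were followed through grain filling in bread wheat (Triticum aestivum), cultivar Jimai 20. They are 2 of the 771 genes in the platform's probe-to-gene table, and all probe sets which that table gives to them were taken: 3 for 6-FEH and 1 for 1-FEH, 4 of the 61115 wheat probe sets on the array. All 4 passed the filter on signal and were among the 36669 tested. Developing seeds came from field plots in 3 phases of grain filling. P1 seeds were taken 11 days post-anthesis, P2 seeds after 15 days and P3 seeds after 20 days, and each phase had 3 biological replicates, so there were 9 arrays. All groups share the cultivar, the site and the growing season, and no treatment or genetic change was applied. The design sets the successive phases against each other, and the 3 comparisons made here share arrays, since each phase enters 2 of them.

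Fructans are polymers of fructose that cereals build from sucrose and hold in vacuoles as a short-term store. In young wheat grains they accumulate early and decline as starch deposition takes over. Fructan exohydrolases release single fructose units from the end of a chain and belong to the same enzyme family as the invertases, which split sucrose. The names tell which linkage is cut: 1-FEH acts mainly on inulin-type chains, and 6-FEH on levan-type chains.

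The probe sets of 6-FEH are called here the a_at and the x_at probe set, after the ends of their identifiers, and the dim probe set. Their full identifiers, and that of the 1-FEH probe set, head the panels of the plot of signals by array. By the array maker's naming, an x_at probe set holds probes that also match other sequences, and an a_at probe set holds probes shared by transcripts of 1 gene or gene family. Wheat is hexaploid, so each signal may include related copies and is uncertain as a measure of 1 copy. A level is therefore compared between phases and never between probe sets. The a_at, x_at and 1-FEH probe sets lay above background on 9 of 9 arrays, where background is the signal that 95% of an array's 64 reporter probe sets, which carry no wheat sequence, do not exceed. This level was 89.4 to 103 at P1, 104 to 153 at P2 and 99.7 to 116 at P3. The dim probe set exceeded it on 0 of 9 arrays.

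Pairs of arrays from 1 phase (9 pairs) correlated at r = 0.947 to 0.962 and pairs from different phases (27 pairs) at 0.871 to 0.930, taken over probe sets as a description. Starchy endosperm markers were alpha-gliadin, LMW glutenin and GBSS-I, with 5 probe sets. They summed to 125975 to 138373 at P1, 134717 to 145932 at P2 and 140852 to 191682 at P3. The seeds thus carried starchy endosperm transcripts in each phase. Of the 5, 1 LMW glutenin probe set lay above background on only 2 of 9 arrays. It averaged 137 ± 60.3 at P1 and 52.9 ± 29.3 at P3. On 4 wheat control transcripts (Ubiquitin, Sucsyn, G-6-PDH and CYP86-TA) the log2 ratio of the 3-prime to the 5-prime probe set averaged 3.32 ± 0.24 at P1, 2.11 ± 0.09 at P2 and 2.53 ± 0.07 at P3 (SD, n = 3), which sets P1 highest and P2 lowest. The labels name no scan date or labelling batch. Scaling to the poly-A spike-ins in place of the deposited scaling moved the median log2 change of tested probe sets. It was -0.83 in P2 against P1, 1.07 in P3 against P2 and 0.23 in P3 against P1. As deposited it was 0.01, 0.07 and 0.07. Directions can therefore depend on the scaling for changes up to about the size of these shifts. Smaller shifts came from median scaling (-0.11 in both comparisons with P1), from the hybridization controls (-0.14 in P2 against P1 and -0.10 in P3 against P1) and from raising all signals to background (0.24, -0.13 and 0.17).

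The 6-FEH transcript rose between 11 and 15 days. The a_at probe set gave signals of 331, 464 and 369 on the P1 arrays, 1493, 1449 and 1354 on the P2 arrays and 1478, 1658 and 1199 on the P3 arrays. P1 stood apart, low on each of its arrays, while P2 and P3 overlapped. The x_at probe set gave 178, 223 and 189 on the P1 arrays, 569, 635 and 758 on the P2 arrays and 339.7, 390.0 and 363 on the P3 arrays. Here the 3 phases did not overlap at all, with P2 highest and P3 between P1 and P2. The 1-FEH transcript kept a narrower range: 1877, 1968 and 1909 on the P1 arrays, 1499.85, 1572 and 1592 on the P2 arrays, and 2169.6, 2174 and 1577 on the P3 arrays. Its P2 arrays all lay below its P1 arrays, and its P3 arrays split, with replicates 1 and 2 the highest of all 9 and replicate 3 among the P2 values.

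**Figure D1:**
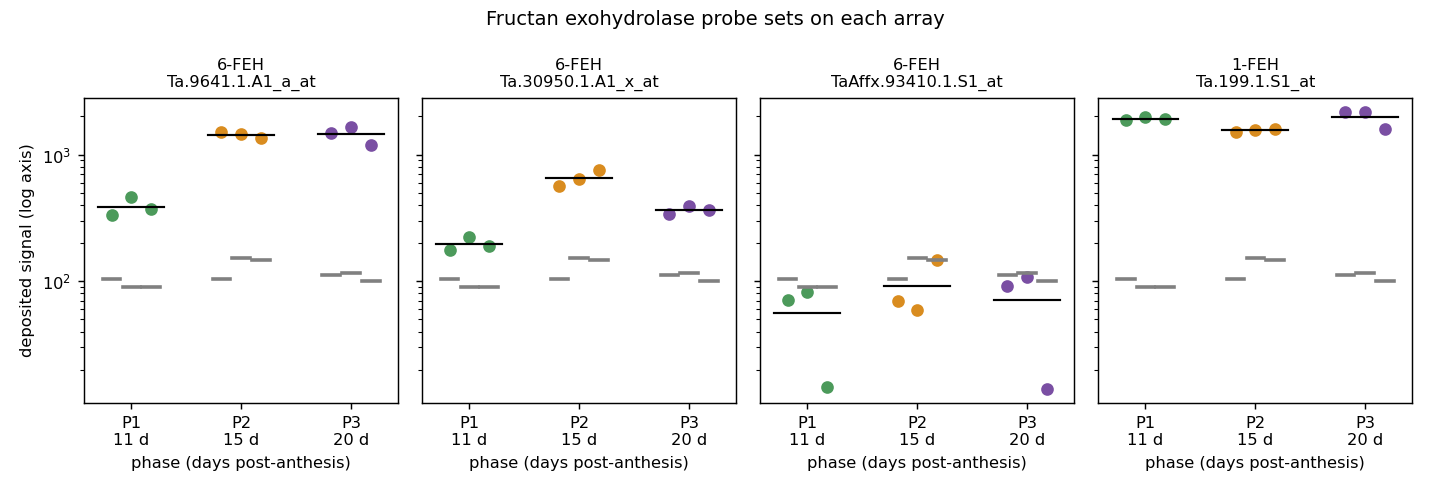
Deposited signal (log axis) of the 4 fructan exohydrolase probe sets by phase, with 1 point per array, a black line at the phase mean and a grey tick at each array's background. The a_at probe set of 6-FEH is near 388 at P1 and at 1199 or more on every later array, the x_at probe set peaks at P2, the dim probe set stays under the ticks, and 1-FEH stays between 1499.85 and 2174.

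In P2 against P1, 6-FEH rose on 2 of 3 probe sets and 1-FEH did not pass. Called changes had an adjusted p under 0.05 in limma, adjusted by Benjamini-Hochberg over all 36669 probe sets, and a change of at least 2-fold. By that rule 6.89% of all tested probe sets rose and 5.79% fell in this comparison, 12.7% in all, and 34% passed the adjusted p alone. Rises made up 54.3% of the calls, but 42.5% under median scaling, 39.6% under the hybridization controls and 5.81% under the poly-A controls. The a_at probe set averaged 1432 ± 70.7 at P2 and 388 ± 68.7 at P1 (SD, n = 3 each), a 3.73-fold rise with a 95% confidence interval of 3.01 to 4.62 (log2 change 1.90, SE 0.14, limma adjusted p = 6.76e-07). Its lowest P2 array was 2.92 times its highest P1 array. The x_at probe set averaged 654 ± 95.9 at P2 and 197 ± 23.7 at P1, a 3.32-fold rise with an interval of 2.62 to 4.21 (log2 change 1.73, SE 0.16, limma adjusted p = 3.68e-06), and its lowest P2 array was 2.55 times its highest P1 array. Of all tested probe sets 22.8% had P2 wholly above P1, so the lack of overlap is common on these arrays. The size was less so: 2.54% of tested probe sets had a higher log2 change than the a_at probe set and 3.16% a higher one than the x_at probe set.

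These rises coincided with other shifts of the tissue and of the arrays. Transcripts of embryo and aleurone maturation (EM, EMH2 and Rab15) rose on 8 of 8 probe sets, with summed signals of 22805 to 25425 at P2 and 950.5 to 1418 at P1. At P1, 2 of the 8 probe sets, both of Rab15, lay above background on all 3 arrays, and 4 on at least 1 array, so the P1 sums include signal not above background. EM averaged 40.1 and 90.6 on its 2 probe sets at P1. Green pericarp markers (PsbO, PsbP and PRK) had 0 of 4 probe sets called, with sums of 14086 to 15903 at P2 and 21952 to 22422 at P1. The part of either tissue in the 6-FEH signal was not tested, and in bulk seed fewer cells of a type and less RNA per cell cannot be told apart. With the 3-prime to 5-prime ratio of the controls as a covariate, the log2 change of a_at was 1.98 (SE 0.60, limma adjusted p = 0.196). That of x_at was 1.82 (SE 0.67, limma adjusted p = 0.319). Both calls ended, although the estimates were as large as before. The ratio itself differed by phase (3.32 at P1 and 2.11 at P2), so the fit can hardly tell it apart from phase. The SEs were 0.14 and 0.16 without it. The part of the ratio in the rises cannot be told from these fits. Under the poly-A scaling a_at was still called, at 1.06, and x_at was not, at 0.89.

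The 1-FEH probe set averaged 1555 ± 48.4 at P2 and 1918 ± 45.7 at P1, a fold of 0.81 with an interval of 0.684 to 0.960 (log2 change -0.30, SE 0.11, limma adjusted p = 0.0549). Its lowest P1 array was 1.18 times its highest P2 array, and 23.3% of all tested probe sets had P2 wholly below P1. With the deposited scaling the interval leaves no room for a 2-fold change in either direction, while the poly-A scaling put the log2 change at -1.14 and made the call. Without P3 replicate 3, whose 1-FEH signal widens the spread used for every phase, the adjusted p was 0.0046 at the same log2 change. In the other fits that left out 1 array, the limma adjusted p ran from 0.0508 to 0.137. The dim 6-FEH probe set had signals of 70.9, 82.2 and 14.6 on the P1 arrays, 70.0, 59.7 and 146 on the P2 arrays and 91.1, 109 and 14.0 on the P3 arrays. All of these lay below background, so its fitted changes are not read as changes of 6-FEH.

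**Figure D2:**
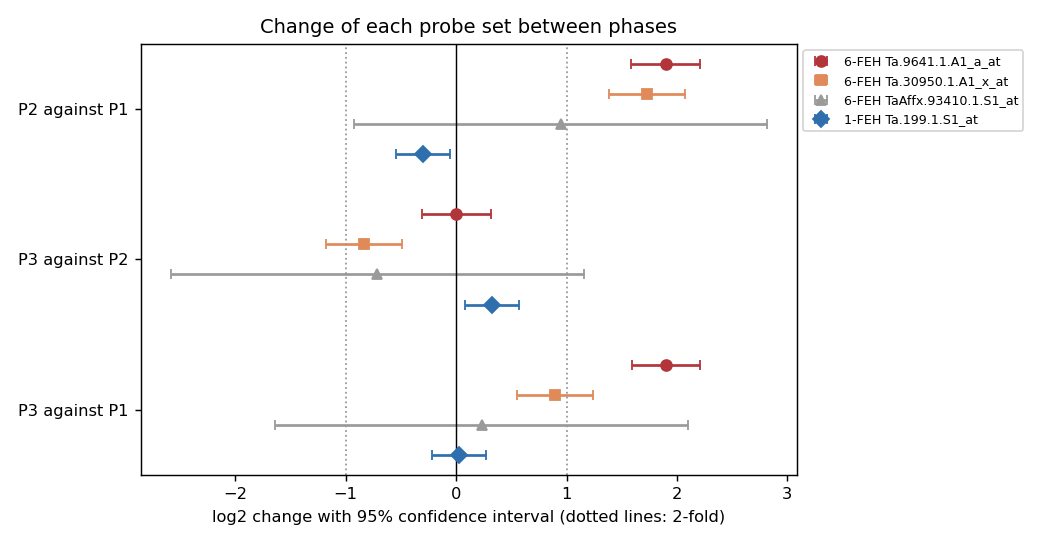
Log2 change (x axis) with its 95% confidence interval from limma for the 4 probe sets in the 3 comparisons between phases, the dotted lines marking 2-fold. The a_at and x_at probe sets of 6-FEH lie together at 1.90 and 1.73 in P2 against P1 and part in P3 against P2, at 0.00 and -0.84, while the intervals of 1-FEH stay inside 2-fold throughout.

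Between 15 and 20 days the 6-FEH probe sets parted. In P3 against P2, 0 of 4 members were called, where 4.46% of all tested probe sets rose and 2.77% fell, 7.23% in all. Rises were 61.7% of these calls, and 98.98% under the poly-A scaling. P3 lay wholly above P2 in 23.2% of tested probe sets and in 0 of the 4 members. The a_at probe set averaged 1445 ± 232 at P3 and 1432 ± 70.7 at P2, a log2 change of 0.0016 (SE 0.14) with an interval of 0.808 to 1.24 as a fold (limma adjusted p = 0.995). The x_at probe set was lower on every P3 array than on any P2 array, at 364 ± 25.2 and 654 ± 95.9, 1.79-fold lower (log2 change -0.84, SE 0.16, limma adjusted p = 0.00178). That is under the 2-fold limit, its interval reaches -1.18, and under the poly-A scaling the log2 change was 0.16. By the adjusted p alone 26% of tested probe sets passed in this comparison, and 17.1% had P3 wholly below P2. Of all tested probe sets 93.2% had a higher log2 change than the x_at probe set, against 55.0% for the a_at probe set. The 1-FEH probe set averaged 1973 ± 343 at P3 and 1555 ± 48.4 at P2, a fold of 1.26 with an interval of 1.06 to 1.49 (limma adjusted p = 0.0487), short of 2-fold. Without P3 replicate 3 its log2 change was 0.48 (limma adjusted p = 0.000819), against 0.33 with it, and over all 9 fits that left out 1 array the adjusted p reached 0.181. The poly-A scaling made calls of a_at, at 1.001, and of 1-FEH, at 1.33. In the same comparison embryo and aleurone markers rose on 8 of 8 probe sets, with sums of 194479.6 to 237428 at P3 and 22805 to 25425 at P2, and green pericarp markers fell on 3 of 4, with sums of 5748 to 6349.7 at P3 and 14086 to 15903 at P2, and their part in these values was not tested.

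The disagreement within 6-FEH can be read inside each array, where scaling of the array cancels. The log2 ratio of the x_at to the a_at probe set, set to a mean of 0 at P1, was -0.42, -0.22 and 0.13 on the P2 arrays and -1.15, -1.12 and -0.75 on the P3 arrays. The P3 arrays were thus all below the P2 arrays. The mean difference was -0.84 for P3 against P2 and -1.01 for P3 against P1, each with p = 0.1 in the exact permutation test, two-sided (n = 3 each, the lowest p possible with 20 splits, and 0.15 once adjusted for 3 pairs of phases). For P2 against P1 it was -0.17 (exact permutation p = 0.4). This ratio was examined after the signals had been seen. On the sucrose synthase control Sucsyn, probe sets of 1 transcript parted. Its 3-prime probe set averaged 21497 ± 789 at P1, 14450 ± 1038 at P2 and 13761 ± 915 at P3 (SD, n = 3). Its middle probe set averaged 2192 ± 32.9, 3063 ± 47.6 and 2009 ± 28.2 in the same order. The 3-prime probe set was highest at P1 and the middle one at P2. Where the 6-FEH probe sets lie along the transcript is not known here, and probes of x_at also match other sequences. The part of probe position, and that of other matching sequences or gene copies, was not tested.

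At 20 against 11 days 6-FEH was still higher. In P3 against P1, 1 of 4 members rose, the a_at probe set, against 8.36% of all tested probe sets that rose and 4.76% that fell, 13.1% in all. Rises were 63.7% of these calls, and 48.0% under median scaling, 49.0% under the hybridization controls and 75.9% under the poly-A controls. The a_at probe set averaged 1445 ± 232 at P3 and 388 ± 68.7 at P1, a 3.73-fold rise with an interval of 3.01 to 4.62 (log2 change 1.90, SE 0.14, limma adjusted p = 4.66e-07). With the 3-prime to 5-prime ratio as a covariate its log2 change was 1.95 (SE 0.41, limma adjusted p = 0.0147), and the call held. The lowest P3 array was 2.58 times the highest P1 array, and 3.43% of tested probe sets had a higher log2 change. The x_at probe set averaged 364 ± 25.2 at P3 and 197 ± 23.7 at P1, 1.86 times as high with an interval of 1.47 to 2.36 (log2 change 0.89, SE 0.16, limma adjusted p = 0.000684), so it passed the adjusted p, as 34.8% of tested probe sets did, and missed 2-fold. With the covariate its log2 change was 0.95 (limma adjusted p = 0.301), which no longer passed. Its arrays did not overlap, which held for P3 wholly above P1 in 26.5% of tested probe sets. P3 lay wholly below P1 in 21.2% of tested probe sets and in 0 of the 4 members. For 1-FEH the fold was 1.02 with an interval of 0.859 to 1.21 (limma adjusted p = 0.895). Embryo and aleurone markers rose on 8 of 8 probe sets here, to sums of 194479.6 to 237428 at P3 against 950.5 to 1418 at P1, and green pericarp markers fell on 4 of 4, to 5748 to 6349.7 at P3 against 21952 to 22422 at P1.

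**Figure D3:**
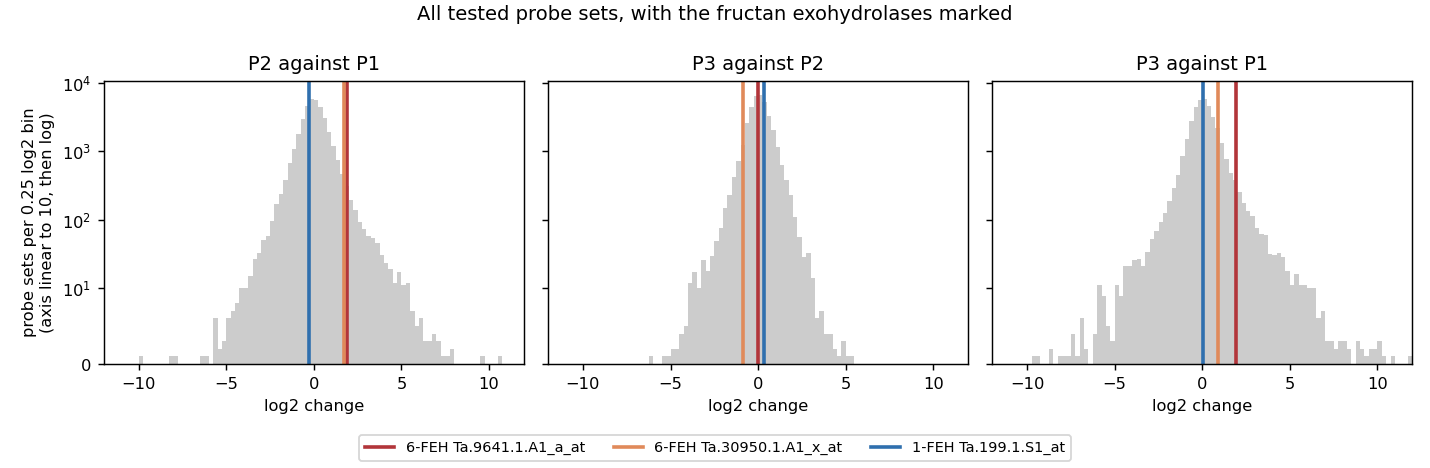
Log2 changes of all 36669 tested probe sets in bins of 0.25 (grey, counts on an axis linear to 10 and then logarithmic, values past 12 in the outermost bin), with 3 fructan exohydrolase probe sets as coloured lines. In P2 against P1 the a_at and x_at lines of 6-FEH stand at 1.90 and 1.73 in the upper flank, past all but 2.54% and 3.16% of probe sets, and the 1-FEH lines lie near the middle in each panel.

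The later step differed from the earlier one for 3 of 4 probe sets, by a limma contrast of the change from P2 to P3 minus the change from P1 to P2, called on the adjusted p alone. By that rule 27.7% of all tested probe sets passed, 12.4% with a lower later step. For 6-FEH the contrast was -1.90 (SE 0.25, limma adjusted p = 0.00012) on the a_at probe set and -2.57 (SE 0.27, limma adjusted p = 2.45e-05) on the x_at probe set. For 1-FEH it was of opposite sign, 0.63 (SE 0.19, limma adjusted p = 0.029), since its signal was lowest at P2. The covariate ended all 3 of these calls, at log2 values of -2.00, -2.68 and 0.33. Under the poly-A scaling that of a_at ended, at -0.06, while those of x_at and 1-FEH stood, at -0.73 and 2.47. That of 1-FEH also ended in 7 of 9 fits that each left out 1 array, where adjusted p ran from 0.0501 to 0.102, with the hybridization controls (0.78, adjusted p = 0.114) and with no intensity trend (0.63, adjusted p = 0.0974), so it was lost in 10 of 20 alternatives.

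Whether the 2 genes changed by the same ratio was asked within arrays. The mean log2 signal over the 3 probe sets of 6-FEH minus that of 1-FEH was higher by 1.83 in P2 against P1, lower by 0.85 (log2 difference -0.85) in P3 against P2 and higher by 0.98 in P3 against P1. The exact permutation test, two-sided, gave p = 0.1 for each pair of phases (n = 3 each), which is the smallest possible with 20 splits, and an adjusted p = 0.1 over 3 pairs. The dim probe set, below background, is part of that mean, so these sizes rest in part on signal that was not measured. Without it, a choice made after seeing the data, the log2 differences were 2.12, -0.75 and 1.37. With the brightest probe set of each gene the log2 differences were 2.20, -0.33 and 1.87. Set to a mean of 0 at P1, the ratio of the a_at probe set to 1-FEH was 2.31, 2.20 and 2.09 on the P2 arrays and 1.77, 1.93 and 1.92 on the P3 arrays, against -0.18, 0.24 and -0.05 at P1. All P2 and P3 arrays stood far above all P1 arrays. P3 replicate 3, low for each probe set taken alone except x_at, lay with its phase on this ratio.

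**Figure D4:**
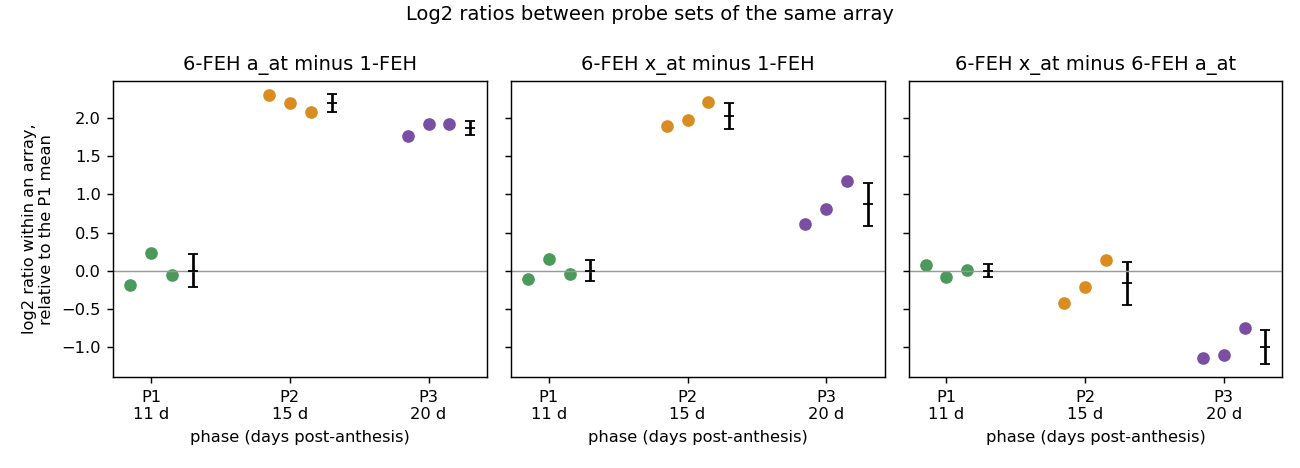
Log2 ratios between probe sets of the same array, relative to the P1 mean, by phase, with 1 point per array and the mean ± SD of 3 arrays beside them. Both 6-FEH probe sets are about 2 log2 units higher against 1-FEH at P2 (2.20 for a_at and 2.03 for x_at), and at P3 the x_at probe set is lower against a_at, at -1.01.

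Among the other carbohydrate enzyme genes BMY1 fell in all 3 comparisons with the deposited scaling. The lists of fructan and sucrose metabolism, starch synthesis, starch breakdown and cell wall polysaccharide enzymes held 9 probe sets of 7 genes in the sparse annotation, and 7 probe sets were tested, 1 of them (AGA.1) below background on every array. In P2 against P1, 0 rose and 1 fell, in P3 against P2 likewise 0 and 1, and in P3 against P1, 0 rose and 4 fell. Over all tested probe sets 6.89%, 4.46% and 8.36% rose and 5.79%, 2.77% and 4.76% fell in these comparisons. So 0 rises among 7 is near the background, while 4 falls among 7 in P3 against P1 is above it. The lists were chosen with earlier results of these data known, so these counts are a description only. Median log2 changes of the 7 probe sets were -0.51, -0.56 and -1.16, beside 0.01, 0.07 and 0.07 over all tested probe sets. The only other gene of fructan and sucrose metabolism was IVR1 (LOC543415), an invertase by that synonym, although the annotation also lists it as atpA. It averaged 37.3 ± 16.3 at P1, 16.4 ± 13.5 at P2 and 17.97 ± 12.5 at P3, below background on every array, and was not tested.

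BMY1 (LOC543318), a beta-amylase that releases maltose from starch chains, went the opposite way to 6-FEH in both comparisons with P1. It did not in P3 against P2, where a_at was flat (log2 change 0.0016) and x_at was lower too (-0.84). It averaged 350.4 ± 11.97 at P2 and 2725 ± 82.5 at P1, 7.78-fold lower (log2 change -2.96, SE 0.15, limma adjusted p = 1.73e-08), and fell to 176 ± 37.3 at P3, 2.03-fold below P2, a log2 change of -1.02, which is about as large as the gap between the medians of all probe sets under the poly-A scaling (1.07) and the deposited one (0.07). In starch synthesis, AGA.1 (LOC543278) encodes part of the enzyme that makes ADP-glucose, the glucose donor for starch, and fell 2.24-fold in P3 against P1 on its brighter probe set (limma adjusted p = 6.16e-06). AGP-S (LOC543299), the small subunit of the same enzyme, averaged 32771 ± 1624 at P3 and 41986 ± 1885 at P1 and was not called. Of the cell wall genes, Glc1 (LOC543469), a glucanase by name, averaged 884 ± 229 at P3 and 2253 ± 102 at P1, a 2.60-fold fall. XTH, a xyloglucan enzyme, averaged 307 ± 51.3 and 828 ± 37.3 in the same phases, a 2.73-fold fall.

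**Figure D5:**
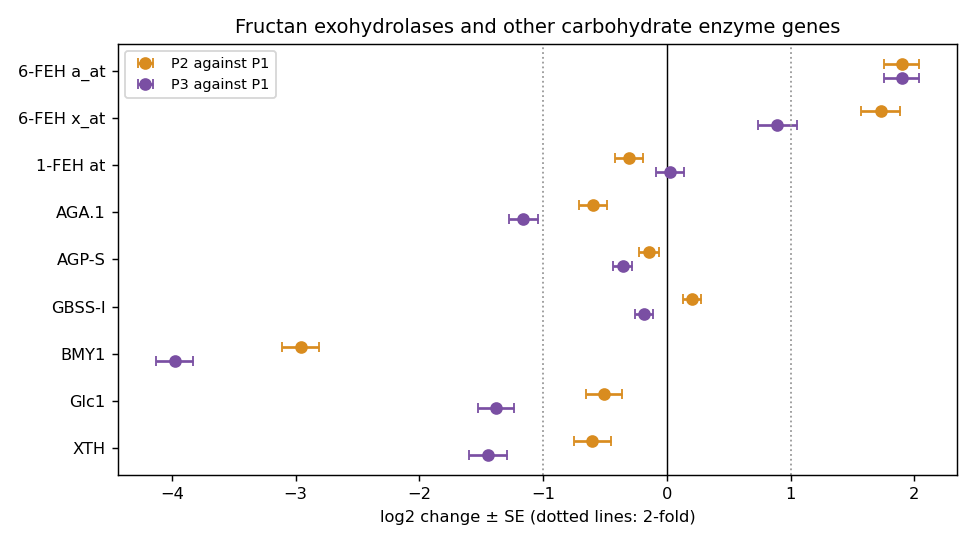
Log2 change ± SE of 3 fructan exohydrolase probe sets and of the tested carbohydrate enzyme probe sets above background, in P2 against P1 and P3 against P1, with dotted lines at 2-fold. The points of 6-FEH are to the right of 0 at 0.89 to 1.90, those of 1-FEH lie near 0, and BMY1 is farthest left, at -2.96 and -3.98.

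The named genes most like each member were found by Pearson correlation of log2 signals over the 9 arrays among 93 other genes with an informative name, each by its brightest tested probe set. The 9 arrays form 3 phases, so r with the a_at probe set mostly reflects phase means, and r is given as a description. For the a_at probe set of 6-FEH the highest were ALMT1 (LOC543388), a malate transporter (r = 0.977), PIMT (LOC543193), which methylates damaged proteins (r = 0.975), PEAMT1 (LOC543067), a methyltransferase of choline synthesis (r = 0.974), the small heat shock gene hsp16.9A (LOC543277, r = 0.965) and LEA1 (LOC543476), a late embryogenesis gene (r = 0.963). PIMT averaged 214 ± 59.2 at P1, 949 ± 83.2 at P2 and 809.9 ± 97.9 at P3. LEA1 averaged 5601 ± 486, 13476 ± 2041 and 16578 ± 1156 in the same order. Each of these genes was low at P1 and higher at P2 and P3, and 1.65% of all tested probe sets correlated with the a_at probe set at over 0.95.

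For 1-FEH the likeness was weaker. Its P3 arrays gave 2169.6, 2174 and 1577, so r here also reflects the spread within P3. The histone H2A genes wcH2A-2 (LOC732712, r = 0.844) and wcH2A-3 (LOC732713, r = 0.784) came highest, followed by an alpha-gliadin (LOC543385, r = 0.682), the calcium channel gene TPC1 (LOC543074, r = 0.670) and AdSS (LOC543243, r = 0.624), an enzyme of purine synthesis. TPC1 averaged 248 ± 33.0 at P1, 149 ± 25.5 at P2 and 303 ± 18.4 at P3, and wcH2A-2 averaged 478 ± 74.9, 212 ± 70.5 and 451 ± 109. All 5 of these genes had their lowest mean at P2, and 7 of the other tested probe sets correlated with 1-FEH at over 0.95. Among the members themselves, the a_at and x_at probe sets correlated at r = 0.857, and with 1-FEH they gave -0.25 and -0.59 over the same 9 arrays.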

How the data were processed

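Total RNA of seeds was extracted with Trizol and labelled with biotin for Affymetrix arrays, per the labels' protocols. The deposited values are linear intensity signals of 61290 probe sets, made by the authors with MAS5, per the submitters' processing notes (version not given in the sources used here). That method scales each array by itself, and the deposited signals had a mean of 500.1 on each array with 2% trimmed at either end, so a change is relative to the bulk of its array. Control (111) and reporter (64) probe sets were left out, and the lowest 40% by mean log2 signal were not tested (geometric mean below 44.8). limma 3.58.1 in R 4.3.3 was fitted to log2 signals (pseudocount 0) of all 9 arrays with phase as the factor, 6 residual degrees of freedom and an intensity trend. Single within-array differences were tested by exact permutation. In a single simulated data set for P2 against P1, 100 of 36669 probe sets were changed by each size. The fit recovered 43% of 2-fold and 73% of 4-fold changes, and 7.2% of the probe sets that passed were false. These shares used the adjusted p under 0.05 alone, without the 2-fold limit. In the data 34% of probe sets passed that rule, far more than were changed in the simulation, so the shares may not carry over. Precision is limited by 3 arrays per phase. Names came from the platform annotation and the RefSeq gene table of IWGSC CS RefSeq v2.1, where 770 of 771 genes matched. Named were the members, the listed carbohydrate genes, tissue markers and the 5 genes most like the brightest probe set of each member gene. The members and lists were chosen with earlier results of these data known. Alternatives were 4 scalings, a pseudocount, a background floor, 2 filters, no trend, a replicate block, a 3-prime to 5-prime covariate, the compared phases alone and each array left out.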

Additional observations from a re-analysis of the deposited data

Results flagged for a closer look

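For 3 probe sets the change from 15 to 20 days differed from the change from 11 to 15 days by the test of that difference. The contrast was -1.90 for the a_at and -2.57 for the x_at probe set of 6-FEH, each of which gained in the earlier step and did not gain in the later one. For 1-FEH it was 0.63, with a dip at 15 days. Each phase had 3 arrays, and single outlying arrays were to be sought only in groups of 4 or more, so no such search was made.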

How the results depend on the processing

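The rise of the a_at probe set of 6-FEH in P3 against P1 was called under all 21 alternatives (log2 change 1.72 to 2.06), and in P2 against P1 under 20 of 21 (1.06 to 2.03), the exception being the 3-prime to 5-prime covariate. With that covariate, which differed by phase and so widened the SEs, 0 members were called in P2 against P1. The same held for the later step against the earlier step. Over all probe sets it gave 552, 1638, 2142 and 353 calls for P2 against P1, P3 against P2, P3 against P1 and the step contrast, where 4652, 2650, 4813 and 10166 were called with phase alone. The poly-A scaling gave 13615, 18734 and 27026 calls for P2 against P1, P3 against P2 and the step contrast, and the hybridization controls 6110 for the last. Under poly-A 2 members were called in P3 against P2 (a_at at 1.001 and 1-FEH at 1.33) and 2 in P3 against P1, x_at was at 0.16 and the dim probe set at 0.29 in P3 against P2, and the step contrast of the dim one was 0.18.

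The a_at change in P3 against P2, near 0, was -0.0030 with quantile normalization, -0.047 with median scaling, -0.0068 with hybridization controls, -0.026 with the covariate and -0.10 to 0.13 with 1 array left out, below 0 without P2 replicate 3, P3 replicate 1 or P3 replicate 2. For 1-FEH in P3 against P1 the sign turned under median scaling (-0.15), hybridization controls (-0.14) and without P3 replicate 1 (-0.051) or 2 (-0.052), the left-out range reaching 0.18. The fitted value of the dim probe set, below background throughout and not read as a change, switched sign under the covariate (-3.57, 0.86, -2.71 and 4.43 in the 4 contrasts) and with arrays left out, over -1.25 to 0.23 in P3 against P2 and -0.56 to 1.18 in P3 against P1. The cause of these turns was not tested. The difference between 6-FEH and 1-FEH kept its direction in all 11 alternatives of each pair of phases, including one without the dim probe set (2.12, -0.75 and 1.37) that was chosen after seeing the data.

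With the replicate number as a block, 2, 0, 1 and 3 members were called in the 4 contrasts, as without it, and a_at in P2 against P1 had a log2 change of 1.90 (SE 0.12, limma adjusted p = 1.52e-06). No common shift of same-numbered arrays was seen: their deviations correlated at -0.05 to 0.03 over 9 pairs, and 3 of 9 arrays correlated best with their own number. The labels tie no number to a shared plot, and these values cannot tell whether one was shared.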
